A study of Mus musculus with 6 samples.

Results

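The sequences named after the mouse hairpins mir-6236, mir-6238 and mir-6240 are 5 of the 756 sequence features in the small RNA data described here. They were taken by name: every deposited row whose name carries one of these 3 mouse hairpins, with any arm or variant, was kept, which gave 2 features for mir-6240, 2 for mir-6236 and 1 for mir-6238. Each feature came from 1 deposited row, so no sums over loci were needed for them.

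The libraries were labelled as Mes23.5, a dopaminergic line made by fusing mouse neuroblastoma cells with rat midbrain cells, and all were stimulated for 24 h with LPS, a bacterial cell wall component. In 3 libraries (SIX2_EV) the cells had received extracellular vesicles (small membrane particles shed by cells, with RNA inside) from microglia overexpressing the transcription factor SIX2. In the other 3 (control_EV) the vesicles came from control microglia. The growth protocol names BV2, a mouse microglial line, so the cell of origin is given only as labelled. Nothing in the labels ties the libraries to separate cultures. The p-values therefore reflect only how far these libraries differ from each other, and that spread may be technical. Of miRNAs abundant in neurons, miR-124 had 0 rows in the table, while miR-9 and miR-218 had 7 and 21 reads in 1 control_EV library each. Others had reads in both groups. miR-7a-5p had 208, 139 and 573 in SIX2_EV libraries, against 644, 1154 and 1756 in control_EV libraries. miR-128-3p had 8, 9 and 22 in SIX2_EV libraries, against 50, 108 and 311 in control_EV libraries, and miR-129-5p had 0, 6 and 73 in SIX2_EV libraries, against 32, 62 and 487 in control_EV libraries. miR-142-5p, which marks blood cells and microglia, had 268, 198 and 826 reads in the SIX2_EV libraries, against 1108, 1652 and 4235 in the control_EV ones, and its part in the results was not tested. These reads are not scaled, and the libraries differed in depth. In the edgeR fit described below, log2 fold changes (SIX2_EV over control_EV) were -0.06 for miR-7a-5p and -1.28 for miR-128-3p. They were -0.74 for miR-129-5p and -0.40 for miR-142-5p, and none had an adjusted p under 0.05. Replicate 3 of each group stood apart in sequences named mir-1285, which took 7.94% of reads in SIX2_EV replicate 3, 7.48% in control_EV replicate 3 and at most 0.447% in any other library.

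A miRNA is cut from a hairpin precursor, and the mature strand of about the same length each time is the part that binds target mRNAs through its seed, bases 2 to 8. Hairpins in miRNA databases were often named from sequenced reads alone, and some of these entries are suspected to be pieces of longer, abundant RNAs such as ribosomal RNA. mir-6236, mir-6238 and mir-6240 belong to that suspected group, and no target or function is given for them here.

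The sequences of the 5 features are shown first because they bear on what these reads are. Each is printed from 5′ to 3′ as deposited, and a capital marks the base that differs from the deposited hairpin.
mir-6240-p5 (mmu-mir-6240-p5_1ss15TG): cggcgggtgttgacGcgat
mir-6240-p3 (mmu-mir-6240-p3_1ss11TG): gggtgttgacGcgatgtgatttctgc
mir-6236-p5 (mmu-mir-6236-p5): cctgaaaatggatggcgctggagc
mir-6236-p3: ccatacccGgccgtcgccggcagtc
miR-6238: attagtcagCggaggaaa

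Only mir-6236-p5 matched its hairpin without a difference. With the hairpin's base first and positions counted from 1 at the 5′ end of the read, the differences were T15G in mir-6240-p5, T11G in mir-6240-p3, A9G in mir-6236-p3 and T10C in miR-6238. Both mir-6240 differences fell on the same base, position 61 of the 117-base hairpin. The 2 mir-6240 features overlap by 15 bases on the same strand, so although they are named as the 5′ and 3′ arm, they cover 1 continuous stretch, from base 47 to base 76. A name with a substitution was carried by 4 of the 5 features, against 18.5% of all 756 features and 12.4% of the 387 features with a mature miRNA name. Among the 364 features outside both the 5 and mature names it was 24.2%.

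The mature miRNAs that RefSeq annotates for these hairpins (GRCm38.p6) are shown for comparison, with the seed in capitals.
mmu-miR-6240: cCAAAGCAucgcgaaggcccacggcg
mmu-miR-6236: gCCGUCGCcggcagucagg
mmu-miR-6238: uUAUUAGUcaguggaggaaaug

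No 2 of these seeds are the same, and no deposited feature had the annotated ends. In RefSeq coordinates (GRCm38.p6) the mature miR-6240 lies on chromosome 5 from 114851973 to 114851998, miR-6236 on chromosome 9 from 110281353 to 110281371, both on the plus strand, and miR-6238 on chromosome 7 from 53891796 to 53891817 on the minus strand. The deposited table places the hairpins on the same chromosomes and strands, from 114990009 to 114990125, from 110110355 to 110110477 and from 53541509 to 53541637, in a build not given by the sources used here. mir-6240-p5 shares 5 bases with the annotated mature miR-6240 and mir-6240-p3 shares 1. mir-6236-p5 shares 0 bases with the annotated mature miR-6236 and mir-6236-p3 shares 16. miR-6238 lies within the annotated 22 bases and is 2 bases shorter at each end.

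**Figure D1:**
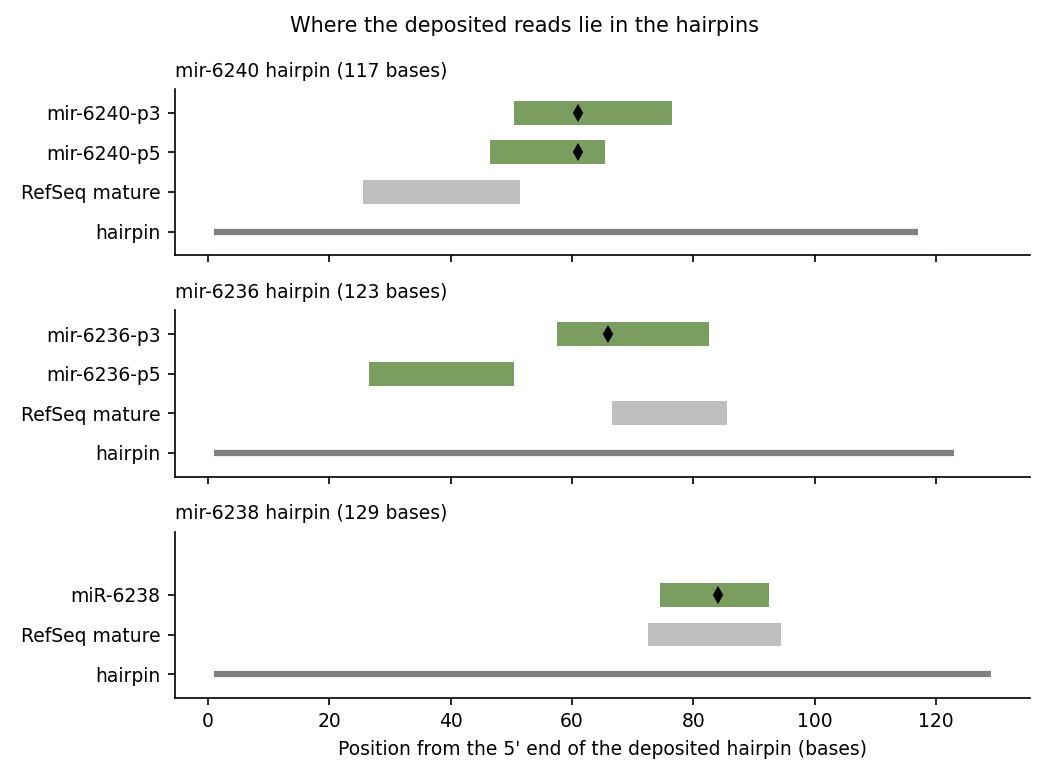
Position of the deposited reads (green), of the RefSeq mature miRNA (light grey bar) and of the whole hairpin (dark grey line) for each hairpin, in bases from the hairpin's 5′ end. Diamonds mark the base that differs from the hairpin. The mir-6240 reads overlap each other and carry the difference at base 61, which lies outside the annotated mature miRNA.

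In length the features were unlike most miRNAs. They had 19, 26, 24, 25 and 18 bases in the order printed, and none had 21 to 23 bases, the length of 81.7% of the features with mature names (55.6% of all features). Their GC content was 68.4%, 53.8%, 58.3%, 76.0% and 44.4%. The median was 45.5% over features with mature names and 52.6% over those 364.

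A search of 141767 GENCODE M21 transcripts found an exact match for 1 of the 5 features, mir-6236-p5, in Mir6236 alone. By comparison, 91.2% of features with mature names and 53.4% of all features matched at least 1 transcript exactly on the same strand. For the 364 features outside both the 5 and mature names this was 13.7%, so few exact matches were not particular to the 5. When 1 mismatch was allowed, each of the 5 matched its own hairpin gene and no other transcript. On the opposite strand there was 0 match for any of them. The longest nuclear ribosomal RNA entry in that set has 1849 bases, which is shorter than 28S ribosomal RNA. A 28S sequence was not used here, so whether the 5 sequences occur in it was not tested. The labels' protocol says that ribosomal RNA reads had been removed before the table was made. No other of the 756 features shared 12 or more bases in a row with any of the 5 on either strand, apart from the mir-6240 pair.

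Summed, the 5 features reached 45798, 54835 and 44559 reads in SIX2_EV libraries, against 57471, 29056 and 47105 reads in control_EV libraries. The counts overlapped and differed by less than the spread between libraries (48397 ± 5609 reads in SIX2_EV and 44544 ± 14380 reads in control_EV, SD, n = 3; exact two-sided permutation p = 0.9). The libraries themselves differed in depth, with 179621, 232635 and 184208 deposited reads in SIX2_EV and 257628, 253037 and 421279 in control_EV.

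As a share of all reads, the 5 features took 25.5%, 23.6% and 24.2% in SIX2_EV, with 95% Wilson intervals of 25.3 to 25.7, 23.4 to 23.7 and 24.0 to 24.4. In control_EV they took 22.3%, 11.5% and 11.2%, with intervals of 22.1 to 22.5, 11.4 to 11.6 and 11.1 to 11.3. These intervals describe counting error alone, because amplified reads that carry no molecular identifier do not stand for separate molecules. All SIX2_EV libraries lay above all control_EV libraries, but control_EV replicate 1 came close to them, while the other two controls were far lower. The means were 24.4% ± 0.983 in SIX2_EV and 14.99% ± 6.34 in control_EV (SD, n = 3), and the permutation p (exact, two-sided) was 0.1, which 3 against 3 libraries cannot go below. After Benjamini-Hochberg adjustment over the 24 shares, ratios and read sums compared, this permutation p was 0.2, so the difference did not pass. The separation depends on the denominator. Mouse-named reads leave out many mature miRNAs, which carry rat names here, miR-21-5p among them. Among reads with mouse names the share was 96.9%, 97.0% and 87.0% in SIX2_EV and 89.4%, 77.6% and 63.1% in control_EV, with overlap. With mir-2887 and mir-2904 left out of the total it was 45.8%, 42.1% and 31.2% in SIX2_EV and 33.3%, 14.9% and 11.4% in control_EV, also with overlap (exact permutation p = 0.2 for each).

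Set against the reads with mature miRNA names, the gap was wider. Mature names had 24940, 15763 and 60147 reads in the SIX2_EV libraries, against 81143, 143543 and 298529 in the control_EV ones, without overlap (exact permutation p = 0.1, adjusted 0.2). For each such read there were 1.84, 3.48 and 0.741 reads of the 5 features in SIX2_EV, against 0.708, 0.202 and 0.158 in control_EV. SIX2_EV replicate 3 and control_EV replicate 1 were nearly equal, and the other libraries stood well apart. The mean log2 ratio was higher by 2.57 in SIX2_EV (exact permutation p = 0.1, adjusted 0.2). The size rests on which names count as mature. With mature names of any species, placed on the mouse genome or not, the ratios were 1.00, 0.888 and 0.639 in SIX2_EV, against 0.600, 0.192 and 0.152 in control_EV. The mean log2 ratio was then higher by 1.67. By name this wider set takes in bta-miR-11987, a suspected fragment described below, so it does not hold mature miRNAs alone. Its variant bta-miR-11987_L-1_1ss8TA had 2392 to 17835 reads per SIX2_EV library, against 1487 to 4590 per control_EV library. The wider set without suspected fragments was not tested.

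Among the reads outside mature names, the 5 features took shares that overlapped between groups: 29.6%, 25.3% and 35.9% in SIX2_EV and 32.6%, 26.5% and 38.4% in control_EV. The means were 30.3% ± 5.35 in SIX2_EV and 32.5% ± 5.92 in control_EV (SD, n = 3; exact permutation p = 0.7). The share of mature miRNA reads moved with the group, at 13.9%, 6.78% and 32.7% of all reads in SIX2_EV and 31.5%, 56.7% and 70.9% in control_EV. Its part in the higher share of the 5 features was not tested.

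**Figure D2:**
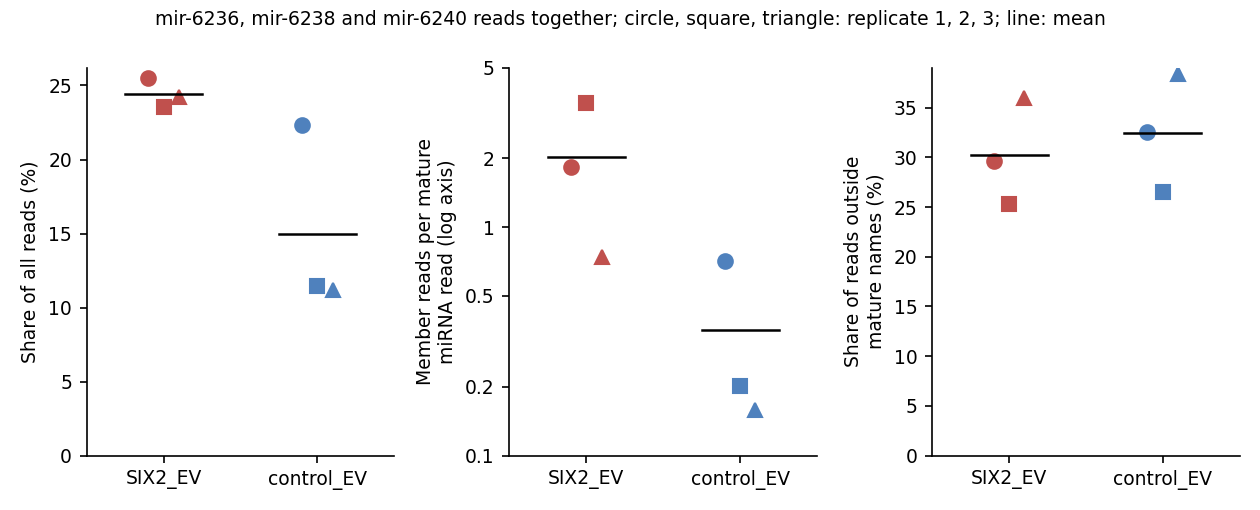
Reads of mir-6236, mir-6238 and mir-6240 together, as a share of all reads in percent, per read with a mature miRNA name (log axis) and as a share of reads outside mature names in percent. Points are libraries and lines are group means. The SIX2_EV libraries lie above the control_EV libraries in the left and middle panels and overlap with them in the right one.

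By hairpin, mir-6240 took 17.6%, 17.1% and 17.6% of reads in SIX2_EV and 17.1%, 8.36% and 7.13% in control_EV. The lowest SIX2_EV library and the highest control_EV library were 17.15% and 17.06%, so the groups were barely apart, and control_EV replicates 2 and 3 were clearly lower. mir-6236 took 7.85%, 6.41% and 6.58% in SIX2_EV and 5.24%, 3.12% and 4.05% in control_EV, a wider gap. For both hairpins the permutation p of the share was 0.1 (exact, 3 against 3 libraries, adjusted 0.2). Per mature read, mir-6240 overlapped between groups, with a lowest SIX2_EV ratio of 0.539 and a highest control_EV ratio of 0.542 (exact permutation p = 0.2, adjusted 0.343). mir-6238 was far rarer, with 8, 25 and 0 reads in the SIX2_EV libraries, against 11, 5 and 6 in the control_EV ones. It was listed at 0 in SIX2_EV replicate 3 and the groups overlapped. Of 2815 row values above 0 in the table, 170 were exactly 5 reads and 169 were lower. Whether rarer sequences had been dropped was not tested, so no limit was drawn from the 0.

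Among the single features, mir-6240-p5, the most abundant of the 5, had 19295, 28420 and 20983 reads in the SIX2_EV libraries, against 36610, 17226 and 20799 in the control_EV ones. That was 10.7%, 12.2% and 11.4% of reads in SIX2_EV and 14.2%, 6.81% and 4.94% in control_EV. The highest share of all belonged to control_EV replicate 1, and the groups overlapped (exact permutation p = 0.4). It was the most abundant of all 756 features in SIX2_EV replicate 3 and ranked 2 to 4 in the other libraries.

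mir-6240-p3, which lies 3′ of mir-6240-p5 and overlaps it, had 12392, 11472 and 11455 reads in the SIX2_EV libraries, against 7352, 3936 and 9228 in the control_EV ones. These are 6.90%, 4.93% and 6.22% of reads in SIX2_EV and 2.85%, 1.56% and 2.19% in control_EV. All SIX2_EV libraries were above all controls, in reads as well as in share, with mean shares of 6.02% ± 0.999 in SIX2_EV and 2.20% ± 0.649 in control_EV (SD, n = 3; exact permutation p = 0.1, adjusted 0.2).

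mir-6236-p5, the feature without a difference from its hairpin, had 11370, 13298 and 10400 reads in the SIX2_EV libraries, against 10743, 6221 and 12884 in the control_EV ones. Its reads overlapped between groups, but its shares, 6.33%, 5.72% and 5.65% in SIX2_EV and 4.17%, 2.46% and 3.06% in control_EV, did not (exact permutation p = 0.1, adjusted 0.2). mir-6236-p3 had 2733, 1620 and 1721 reads in the SIX2_EV libraries, against 2755, 1668 and 4188 in the control_EV ones. Its shares, 1.52%, 0.696% and 0.934% in SIX2_EV and 1.07%, 0.659% and 0.994% in control_EV, overlapped (exact permutation p = 0.8). In shares of all reads, then, 2 of the 5 features had groups that did not overlap and were higher in SIX2_EV, against 2.82% of the 319 features tested, and 0 of the 5 were lower without overlap, against 28.8%. The levels of the 5 ran together across libraries, as given below, so these are not counts of separate observations.

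**Figure D3:**
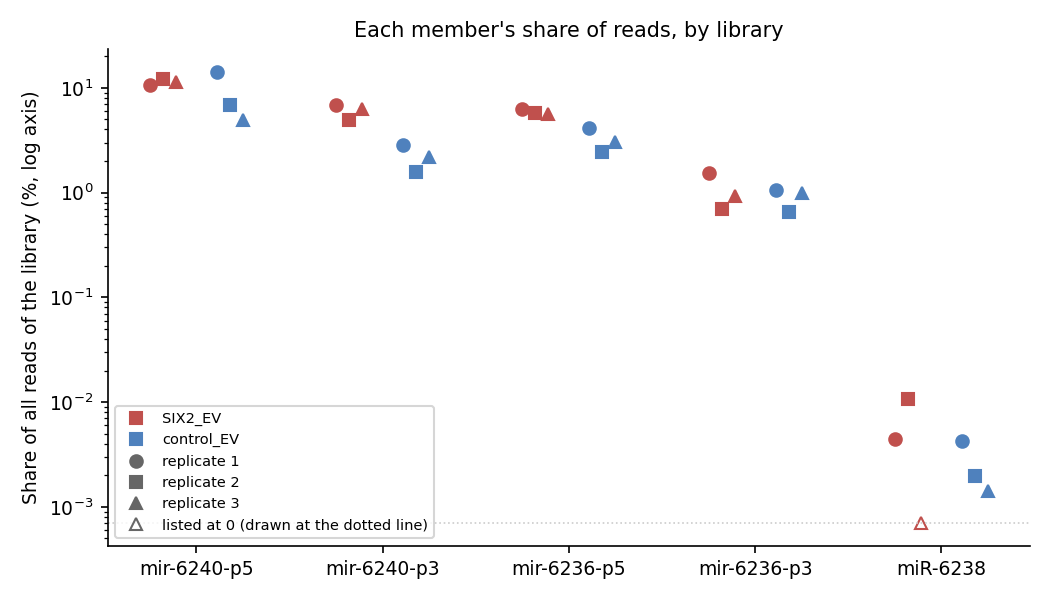
Share of all reads of each library, in percent on a log axis, for the 5 features; each point is a library. mir-6240-p3 and mir-6236-p5 lie higher in all SIX2_EV libraries, mir-6240-p5 and mir-6236-p3 overlap between groups, and miR-6238 stays at or below 0.0107%, with the open triangle marking the library listed at 0.

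Ratios between the features of the same library do not depend on depth or on the scaling between libraries. For each read of mir-6236-p5 there were 1.09, 0.863 and 1.10 reads of mir-6240-p3 in SIX2_EV, against 0.684, 0.633 and 0.716 in control_EV. For each read of mir-6236-p3 there were 4.53, 7.08 and 6.66 reads of mir-6240-p3 in SIX2_EV, against 2.67, 2.36 and 2.20 in control_EV. Both ratios were higher in every SIX2_EV library than in any control, and the 3 control_EV libraries lay close together.

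Within the mir-6236 hairpin, there were 4.16, 8.21 and 6.04 reads of mir-6236-p5 per read of mir-6236-p3 in SIX2_EV, against 3.90, 3.73 and 3.08 in control_EV. The groups were apart by little, with SIX2_EV replicate 1 close to control_EV replicate 1. Within mir-6240, there were 0.642, 0.404 and 0.546 reads of mir-6240-p3 per read of mir-6240-p5 in SIX2_EV, against 0.201, 0.228 and 0.444 in control_EV. Here the groups overlapped, because control_EV replicate 3 was above SIX2_EV replicate 2.

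Of the 6 ratios between the 4 abundant features, 3 did not overlap between groups, with a permutation p of 0.1 each (exact, 3 against 3 libraries, adjusted 0.2). The mean log2 ratio was higher in SIX2_EV by 0.58 for mir-6240-p3 to mir-6236-p5, by 1.32 for mir-6240-p3 to mir-6236-p3 and by 0.74 for mir-6236-p5 to mir-6236-p3. These 3 are not separate observations, because the ratio of mir-6240-p3 to mir-6236-p3 is the product of the others. How often ratios between other features of the libraries overlap was not tested. The ratio within mir-6240 was higher by 0.93 (exact permutation p = 0.2). Ratios of mir-6240-p5 to either mir-6236 feature overlapped, with a log2 difference of -0.35 against mir-6236-p5 and 0.38 against mir-6236-p3 (exact permutation p = 0.4 and 0.6).

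As parts of the pool of 5, mir-6240-p3 made up 27.1%, 20.9% and 25.7% in SIX2_EV and 12.8%, 13.5% and 19.6% in control_EV. mir-6240-p5 made up 42.1%, 51.8% and 47.1% in SIX2_EV and 63.7%, 59.3% and 44.2% in control_EV. The parts of mir-6240-p3 did not overlap between groups (exact permutation p = 0.1, adjusted 0.2), and those of mir-6240-p5 did.

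**Figure D4:**
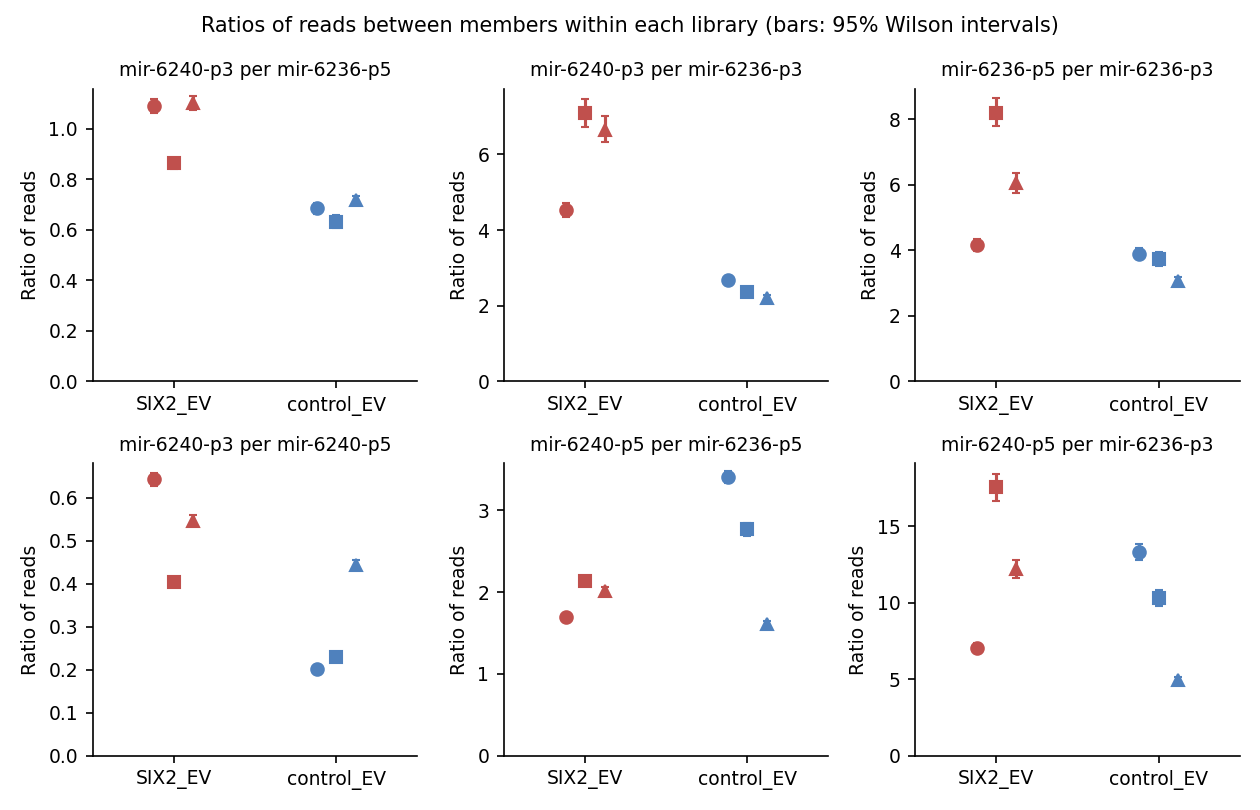
Reads of one feature per read of another in each library; bars are 95% Wilson intervals, which cover counting error only. The ratios in the upper row do not overlap between SIX2_EV and control_EV, and those in the lower row do.

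The features were then tested across the whole table with edgeR's quasi-likelihood test, scaled by TMM, which sets library sizes so that most features keep the same level. All 5 passed the filter on low counts, and 0 of the 5 passed an adjusted p of 0.05, as did 0% of the 319 features tested; 12.2% of the 319 had an unadjusted p under 0.05, and DESeq2 called 6.41% of 312. mir-6240-p3 had the largest value relative to its error, at 109340 ± 54254 CPM (reads scaled to library size) for SIX2_EV, against 14880 ± 10245 CPM for control_EV (SD, n = 3). Its log2 fold change was 2.88 (SE 0.86, adjusted p = 0.368 by edgeR). mir-6236-p5 had 113000 ± 69091 CPM for SIX2_EV, against 21954 ± 14879 CPM for control_EV (SD, n = 3; log2 fold change 2.36, SE 0.89, adjusted p = 0.368 by edgeR).

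The other 3 had positive log2 fold changes too: 1.65 (SE 0.63) for mir-6236-p3, 1.79 (SE 1.21) for mir-6240-p5 and 2.87 (SE 1.82) for miR-6238, with adjusted p between 0.368 and 0.603 by edgeR. Single libraries moved some of these values: miR-6238 was at 1.10 without SIX2_EV replicate 2, and mir-6240-p5 was at 1.19 without SIX2_EV replicate 2 and at 2.88 without control_EV replicate 1. At an unadjusted p under 0.05 there were 3 of the 5, all higher in SIX2_EV, against 5.64% of tested features that were higher at that level. This count was made with TMM. Scaled to all reads, the same 3 were at 1.45 (SE 0.68) for mir-6240-p3, 0.87 (SE 0.67) for mir-6236-p5 and 0.21 (SE 0.69) for mir-6236-p3. At that scaling 4 of 319 tested features were higher with an unadjusted p under 0.05 by edgeR. In CPM after TMM, 2 of the 5 had groups that did not overlap and were higher in SIX2_EV, against 5.96% of tested features, and 0 of the 5 were lower without overlap, against 16.9%. These 2, mir-6240-p3 and mir-6236-p5, ran together across the libraries (Pearson's r = 0.989 in log2 CPM). The 5 are therefore not separate observations. DESeq2 gave an adjusted p of 0.00247 for mir-6240-p3 and 0.0351 for mir-6236-p5, and called 4.17% of 312 features as higher in SIX2_EV.

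The sizes rest on the scaling. TMM moved the library sizes far apart, with factors of 0.590, 0.309 and 1.203 in SIX2_EV and 1.07, 1.59 and 2.67 in control_EV. Scaled to all reads, the log2 fold changes were 1.45 for mir-6240-p3, 0.87 for mir-6236-p5, 0.40 for mir-6240-p5, 0.21 for mir-6236-p3 and 0.99 for miR-6238. Scaled to reads with mature names they were 3.25, 2.75, 2.19, 2.02 and 3.31 in the same order. Over all 319 features the median log2 fold change stood at -0.30 with TMM, -1.52 with all reads and 0.03 with mature reads. All 5 stayed positive and above that median under each of the 3 scalings.

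**Figure D5:**
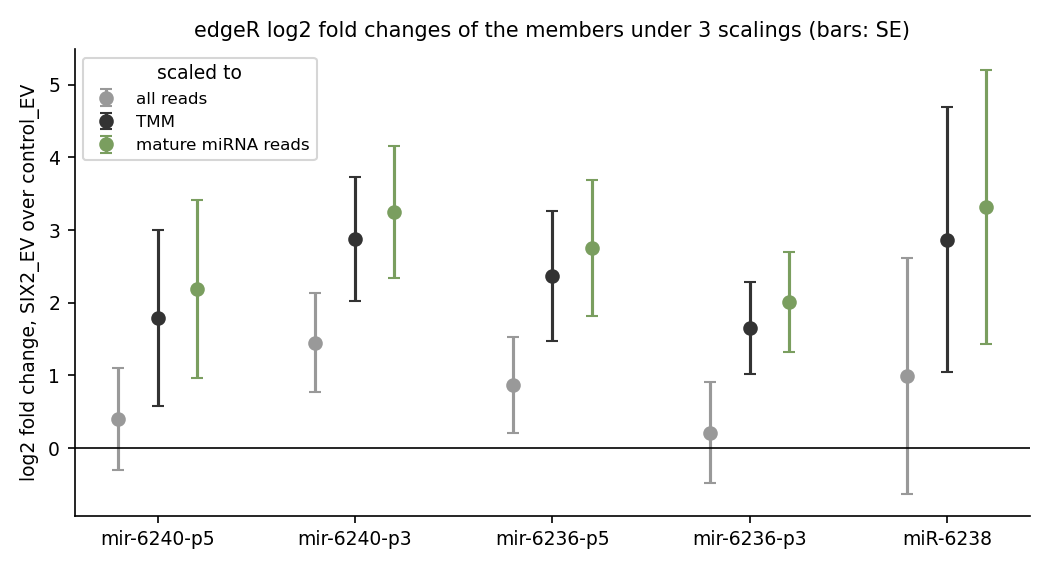
Log2 fold change (SIX2_EV over control_EV) of each feature by edgeR when libraries are scaled to all reads, by TMM or to reads with mature miRNA names; bars are SE. All values are above 0 under each of the 3 scalings, and the values scaled to all reads are the lowest for each feature.

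Without replicate 3 of each group, the library of each that stood apart in mir-1285, the share of the 5 features was higher in SIX2_EV by 7.64 percentage points and their log2 ratio to mature reads by 2.74, in place of 9.43 and 2.57 with all libraries. The log2 difference of mir-6240-p3 to mir-6236-p5 was then 0.56.

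Across the 6 libraries the log2 CPM of the 5 features ran together, with Pearson's r between 0.671 and 0.989 for the 10 pairs, lowest for mir-6240-p3 with miR-6238. All features of a library share its TMM factor, so these values describe the libraries and are no test. Among 464 other features that averaged 10 CPM or more, the 5 most like the summed features were hsa-miR-1268a_R+1_1ss10TG (r = 0.992), bta-miR-11987_L-3_1ss8TA and bta-miR-11987_L-2_1ss8TA (0.990 each), and hsa-mir-1268a-p3_1ss9TG and hsa-mir-1268a-p5_1ss9TG (0.989 each, the same sequence under both names). The median r over features with mature names was -0.593. The 5 most correlated features bear human or cattle names, and their hairpins are on a list of other suspected fragments that was written with earlier results of these data known.

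That list held 54 hairpins, of which 16 were found with 39 features and 23 tested. Of these 23, 21 had positive and 2 had negative log2 fold changes with TMM, with a median of 3.10, and 0 passed by edgeR over all features. Several of the 23 are variants of the same hairpin, such as miR-11987 and mir-1268a, so they are not separate observations. By comparison, 35.4% of all tested features were positive, and the 5 features of mir-6236, mir-6238 and mir-6240 had a median of 2.36. The other hairpins took 55.9%, 62.4% and 34.9% of reads in SIX2_EV and 39.0%, 26.7% and 10.9% in control_EV, with overlap. Their most abundant feature, bta-mir-2887-2-p5, varied far more between libraries than the 5. It took 35.7%, 35.5% and 10.8% of reads in SIX2_EV and 14.6%, 6.17% and 0.649% in control_EV, with overlap. bta-mir-2904-3-p3 took 7.73%, 7.29% and 10.9% in SIX2_EV and 16.1%, 14.9% and 1.01% in control_EV, with overlap. bta-miR-11987_L-1_1ss8TA took 5.39%, 7.67% and 1.30% in SIX2_EV and 1.78%, 1.05% and 0.353% in control_EV, also with overlap.

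Among the names counted as mature here, which leave out bta-miR-11987, miR-21-5p (listed as rno-miR-21-5p_R+1) had the most reads in every library. miR-21-5p is known to be induced in many inflamed and growing cells. It had 4409, 2805 and 14516 reads in the SIX2_EV libraries, against 14679, 26509 and 61286 in the control_EV ones. The 5 features therefore outnumbered it in every SIX2_EV library and in 2 of the 3 control_EV libraries.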

How the data were processed

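Small RNA was sequenced from 6 libraries, 3 per group. Per the labels' protocols, Trizol RNA went into TruSeq small RNA libraries, sequenced on an Illumina HiSeq, and the program ACGT101-miR took out adapter, junk and repeat reads as well as those of rRNA, tRNA, snRNA and snoRNA. Such a filter can change how many fragment reads are left. The build, miRBase release and mapping settings: not given in the sources used here. In the deposited file, raw columns are expected counts (estimated reads, split over loci), per the file headers and values, and the others are the authors' normalized signal, which equals those counts times 1 factor per library, from 0.2267 to 3.3986. Of feature values above 0, 89.8% were whole within 0.05.

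The 823 rows were summed by name and sequence into 756 features and rounded. Mature names are miR or let-7 names in the table's categories gp1a and gp1b, outside the 5 features: 92 and 295. Replicates differed by more than counting noise (lowest chi-square per degree of freedom 56.9), so none was treated as a repeat deposit of another; this does not show that they came from separate cultures.

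Groups were compared with edgeR 4.0.16 (quasi-likelihood test, TMM, filterByExpr, no block, Benjamini-Hochberg at 0.05; R 4.3.3) on all features. The same fit was also run on simulated counts with changes placed at random, which do not test the scaling of these libraries. limma 3.58.1 and DESeq2 1.42.0 served as alternatives. For summed values and ratios, an exact permutation test (two-sided) was used. CPM were scaled to the TMM effective library size. The members, lists and tests were chosen with earlier results of these data known. Named outside the 5 were the 5 features most correlated with their sum, the 3 most abundant of the other suspected fragments and miR-21-5p. RefSeq and GENCODE M21 sequences were matched by name and by sequence.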

Additional observations from a re-analysis of the deposited data

How the results depend on the processing

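All 5 features kept a positive log2 fold change under all 19 alternatives to the edgeR test, and 0 of 5 passed under 18 of them; DESeq2 called 2 of 5. Over the whole table DESeq2 called 20 features and limma on the authors' normalized signal 5, in place of 0; 39 features had an unadjusted p under 0.05 by edgeR. For mir-6240-p3 the log2 fold change ranged from 1.45 to 3.61 with adjusted p from 0.00247 to 0.947, and for mir-6236-p5 from 0.87 to 3.08 with adjusted p from 0.0351 to 0.947. The range was 0.21 to 2.25 for mir-6236-p3, 0.40 to 2.88 for mir-6240-p5 and 0.99 to 3.95 for miR-6238. Leaving out 1 library at a time, the difference in share was 7.52 to 13.1 percentage points and that of the log2 ratio to mature reads 2.04 to 3.23. The share difference was 16.9 points among mouse-named reads and 19.8 points with mir-2887 and mir-2904 left out of the denominator, but the groups then overlapped and the exact permutation p was 0.2 in place of 0.1.

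The log2 ratio of mir-6240-p5 to mir-6236-p3 (0.38) ranged from -0.030 to 0.73 with 1 library left out, turning negative without control_EV replicate 3, and was -0.074 in replicates 1 and 2. The difference in the share of reads outside mature names, -2.22 points, ranged from -5.20 to 0.72 with 1 library left out, turning to 0.27 without SIX2_EV replicate 2 and to 0.72 without control_EV replicate 3. The cause was not tested. Replicates 1 and 2 alone, and these ratios, were chosen after the data were seen.

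Library numbers were not taken to pair the groups, since deviations of same-numbered libraries correlated at 0.209, 0.0669 and 0.673, not all above 0.1. Both replicates 3 do deviate together and share the mir-1285 reads. Their correlations of -0.668 to -0.300 with other numbers of the other group are partly fixed by the method. Deviations were taken from group means, so they sum to 0 within a group. Libraries of unlike number also reached 0.623 (SIX2_EV replicate 2, control_EV replicate 1) and 0.361 (SIX2_EV replicate 1, control_EV replicate 2). Whether both replicates 3 share a source was not tested. With the replicate block edgeR called 0 features and 0 of the 5, and miR-6238 was at 1.39. Pairing by library number cannot change the mean differences of 9.43 points in share and 2.57 in log2 ratio. The exact permutation p within library numbers was 0.25 for each, the lowest that this pairing allows.

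Depth limits only miR-6238, whose 0 to 25 reads per library leave its direction undetermined at this depth.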
